A study of Mus musculus with 35 samples.

Results

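Liver RNA of mice was measured on 35 Affymetrix arrays in 9 groups, and 6 genes that lie on the chromosomes of the deleted genes E2f7 and E2f8 were followed through every array. Trhde, B4galnt1 and Rassf3 lie on chromosome 10 with E2f7, and Gm2788, Pcsk6 and 0610005C13Rik lie on chromosome 7 with E2f8. They were selected on measured values: each passed an adjusted p under 0.05 (limma), in the same direction, in the E2f8 knockout against wild type at 3 weeks and at 2 months. They are 6 of 18193 measured genes and are covered by 9 probe sets. Their values in that comparison are therefore a description and carry no test.

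The knockout groups of 4 arrays each were Albumin-Cre E2f7loxp/loxp, Albumin-Cre E2f8loxp/loxp, and Albumin-Cre with both floxed genes. They were collected at 3 weeks and at 2 months on an FVB background, as were the wild-type livers, with 3 and 5 arrays. Another group, 3 arrays at 2 months, was Mx1-Cre E2f1-/- E2f2-/- E2f3loxp/loxp on a mixed C57B/L6 and FVB background. Albumin-Cre recombines in hepatocytes, so other liver cells keep the floxed gene, and Mx1-Cre is switched on by interferon. The labels number arrays as separate samples without stating that each was a separate animal, so errors measure the spread between these samples. Values are log2 probe set signals, and a difference of 1 on this scale is a doubling. In bulk liver, fewer cells of a type and less RNA per cell cannot be told apart.

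The atypical E2F proteins E2f7 and E2f8 need no dimerization partner to bind DNA, and they repress genes of DNA replication and the cell cycle. E2f1, E2f2 and E2f3 are the activating members that drive the same kind of genes. In liver both sides are known for setting how hepatocytes become polyploid. A floxed allele is bred into a line together with the flanking stretch of its chromosome, and a deletion can also remove or rewire sequence of a gene that overlaps it. Genes that differ near a targeted gene therefore raise the question of regulation, linked allele or the deletion itself. No genotype of the flanking alleles was analysed here, so these 3 cannot be told apart for a single gene. What the arrays give is in which genotypes each gene differed.

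The arrays fell into 3 distributions of values, called runs here. All 3-week arrays formed one run. At 2 months the E2f7, E2f8 and E2f7/E2f8 knockouts ran with wild-type replicates 1 to 3, and the E2f1/E2f2/E2f3 knockout ran with replicates 4 and 5. Levels were compared only within a run. The brightest E2f8 probe set was higher in E2f8 knockouts, by 1.8 (SE 0.35) and 2.20 (SE 0.35) against wild type at 3 weeks and 2 months, with limma adjusted p = 0.00549 and 0.00178. The E2f7 probe set differed by 0.01 and -0.17 between E2f7 knockout and wild type, and in the triple knockout the E2f1 probe set differed by 0.11, that of E2f2 by 0.15 and that of E2f3 by 0.10. Deletions were checked by the authors by PCR of DNA, and these probe sets do not check the labels, since where they lie relative to the deleted part was not analysed here. Hepatocyte markers (5 measured) had array means between 14.17 and 14.48 at 2 months and between 13.55 and 13.71 at 3 weeks.

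The windows upstream of the start sites are shown for the genes of this set that are in the RefSeq promoter table (GRCm38.p6), together with E2f7 and E2f8 themselves, because a regulated gene and a gene beside the deletion raise different questions of the start site: an E2F motif in one case, an overlap with E2f8 in the other. Each line is the 250 bases before the start, 5′ to 3′ on the gene's strand. The windows are chr7:48881597-48881846 (minus strand) for E2f8, chr10:110745189-110745438 (plus) for E2f7, chr7:45575177-45575426 (minus) for 0610005C13Rik, chr7:65861886-65862135 (plus) for Pcsk6 and chr10:114802303-114802552 (minus) for Trhde. Capitals mark a match to an E2F motif, searched as TTTCCCGC, TTTGGCGC, TTTCGCGC and TTTGCCGC on both strands from 250 bases before to 50 after the start.
E2f8: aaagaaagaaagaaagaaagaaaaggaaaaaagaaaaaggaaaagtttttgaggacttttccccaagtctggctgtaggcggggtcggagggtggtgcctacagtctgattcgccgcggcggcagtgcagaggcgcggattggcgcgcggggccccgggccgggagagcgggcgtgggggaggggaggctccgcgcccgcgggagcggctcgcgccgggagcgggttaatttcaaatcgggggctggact
E2f7: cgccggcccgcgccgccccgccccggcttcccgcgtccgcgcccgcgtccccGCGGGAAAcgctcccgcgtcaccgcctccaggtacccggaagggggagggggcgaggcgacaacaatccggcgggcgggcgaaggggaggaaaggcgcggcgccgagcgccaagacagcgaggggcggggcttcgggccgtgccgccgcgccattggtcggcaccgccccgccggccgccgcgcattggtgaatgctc
0610005C13Rik: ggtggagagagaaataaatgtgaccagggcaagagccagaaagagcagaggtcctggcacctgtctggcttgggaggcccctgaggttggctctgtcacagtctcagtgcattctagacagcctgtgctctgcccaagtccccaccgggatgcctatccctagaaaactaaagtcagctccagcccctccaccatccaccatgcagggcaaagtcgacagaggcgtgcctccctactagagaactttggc
Pcsk6: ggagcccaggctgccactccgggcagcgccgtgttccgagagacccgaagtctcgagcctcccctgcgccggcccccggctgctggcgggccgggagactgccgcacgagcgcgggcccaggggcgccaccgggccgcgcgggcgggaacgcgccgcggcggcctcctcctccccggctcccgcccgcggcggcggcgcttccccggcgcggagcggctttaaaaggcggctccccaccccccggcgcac
Trhde: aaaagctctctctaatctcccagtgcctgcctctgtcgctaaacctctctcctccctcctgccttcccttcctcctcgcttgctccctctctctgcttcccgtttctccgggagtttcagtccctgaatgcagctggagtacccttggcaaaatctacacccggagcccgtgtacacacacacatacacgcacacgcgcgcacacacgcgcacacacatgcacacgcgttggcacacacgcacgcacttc
E2f7 held 1 match, GCGGGAAA at base 53 of its window, and none of the 4 motifs was read in the windows of E2f8, 0610005C13Rik, Pcsk6 and Trhde. Of all 32851 promoters of this length 744 held a match, or 2.26%. A match is a run of letters and not a bound site, and its absence covers only these letters in this window. The whole E2f8 window lies inside the span of Gm2788, and also inside the annotated span of E2f8, whose outermost start lies further upstream.

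Gm2788 is annotated as a long non-coding RNA at chr7:48881300-48886608 and overlaps the end of E2f8 (chr7:48866429-48882073) that holds the E2f8 start, by 774 bp. At 3 weeks its signal was 9.60, 9.75 and 9.0 in the wild-type arrays and 9.26, 9.89, 9.81 and 10.002 in the E2f7 knockout. It was 5.82, 5.60, 5.47 and 5.93 in the E2f8 knockout and 5.72, 5.65, 5.98 and 5.82 in the E2f7/E2f8 knockout. Every array without E2f8 lay more than 3 log2 units below every array with it, and the genotypes without E2f8 overlapped each other.

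At 2 months Gm2788 read 10.18, 9.18 and 10.21 in wild type and 9.0, 9.42, 9.64 and 8.95 in the E2f7 knockout. The E2f8 knockout arrays read 6.66, 6.5, 6.32 and 6.65, and the E2f7/E2f8 arrays 6.62, 6.61, 6.46 and 6.21. The groups again split by E2f8 genotype alone, with no overlap. Against wild type the E2f8 knockout was -3.74 (SE 0.43) at 3 weeks and -3.32 (SE 0.43) at 2 months, values that chose the gene. The E2f7/E2f8 knockout minus E2f7 knockout compares none of the arrays compared in that choice and could be tested. Its SE, like that of the choice, came from a spread pooled over all 35 arrays. The test is therefore not fully separate from the choice.

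In that comparison Gm2788 fell at both ages. The difference was -3.94 (15.4-fold lower, SE 0.40, adjusted p = 9.19e-07) at 3 weeks and -2.78 (6.86-fold lower, SE 0.40, adjusted p = 0.00154) at 2 months in limma. It was 1 of the 6 genes called at each age, where 0.121% and 0.236% of all genes were called. It was also the 1 gene among all 18193 called in the same direction at both ages, 0.00550% of them. The change of the difference with age was 1.16 (SE 0.56, adjusted p = 0.674). The arrays of each age lay in different runs, so age and run cannot be told apart in it. Its SE pools the spread over all groups. The Gm2788 SD was 1.74 in the E2f1/E2f2/E2f3 knockout, and 0.14 to 0.33 in the groups compared. The lack of a call is therefore not evidence of an equal difference at both ages. None of the 6 genes was called for a change with age in limma (0 of 6, against 0.0110% of all genes), and 1 of 6 had an unadjusted p under 0.05.

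E2f8's own signal moved the other way in the same arrays. Its brightest probe set read 9.29, 8.91, 8.85 and 8.75 in the E2f8 knockout at 3 weeks, against 7.79, 7.22 and 6.45 in wild type. It read 8.72, 9.56, 8.24 and 8.38 in the E2f7/E2f8 knockout and 7.45, 7.71, 7.54 and 8.18 in the E2f7 knockout. These E2f7/E2f8 and E2f7 arrays did not overlap, and the difference was 1.01 (SE 0.32, adjusted p = 0.321) at 3 weeks. At 2 months it was 1.88 (SE 0.32, adjusted p = 0.011), so E2f8 signal rose there while Gm2788 fell. The dimmer E2f8 probe set differed by 0.56 and 0.42 (SE 0.27 each, adjusted p over all probe sets = 0.578 and 0.905).

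**Figure D1:**
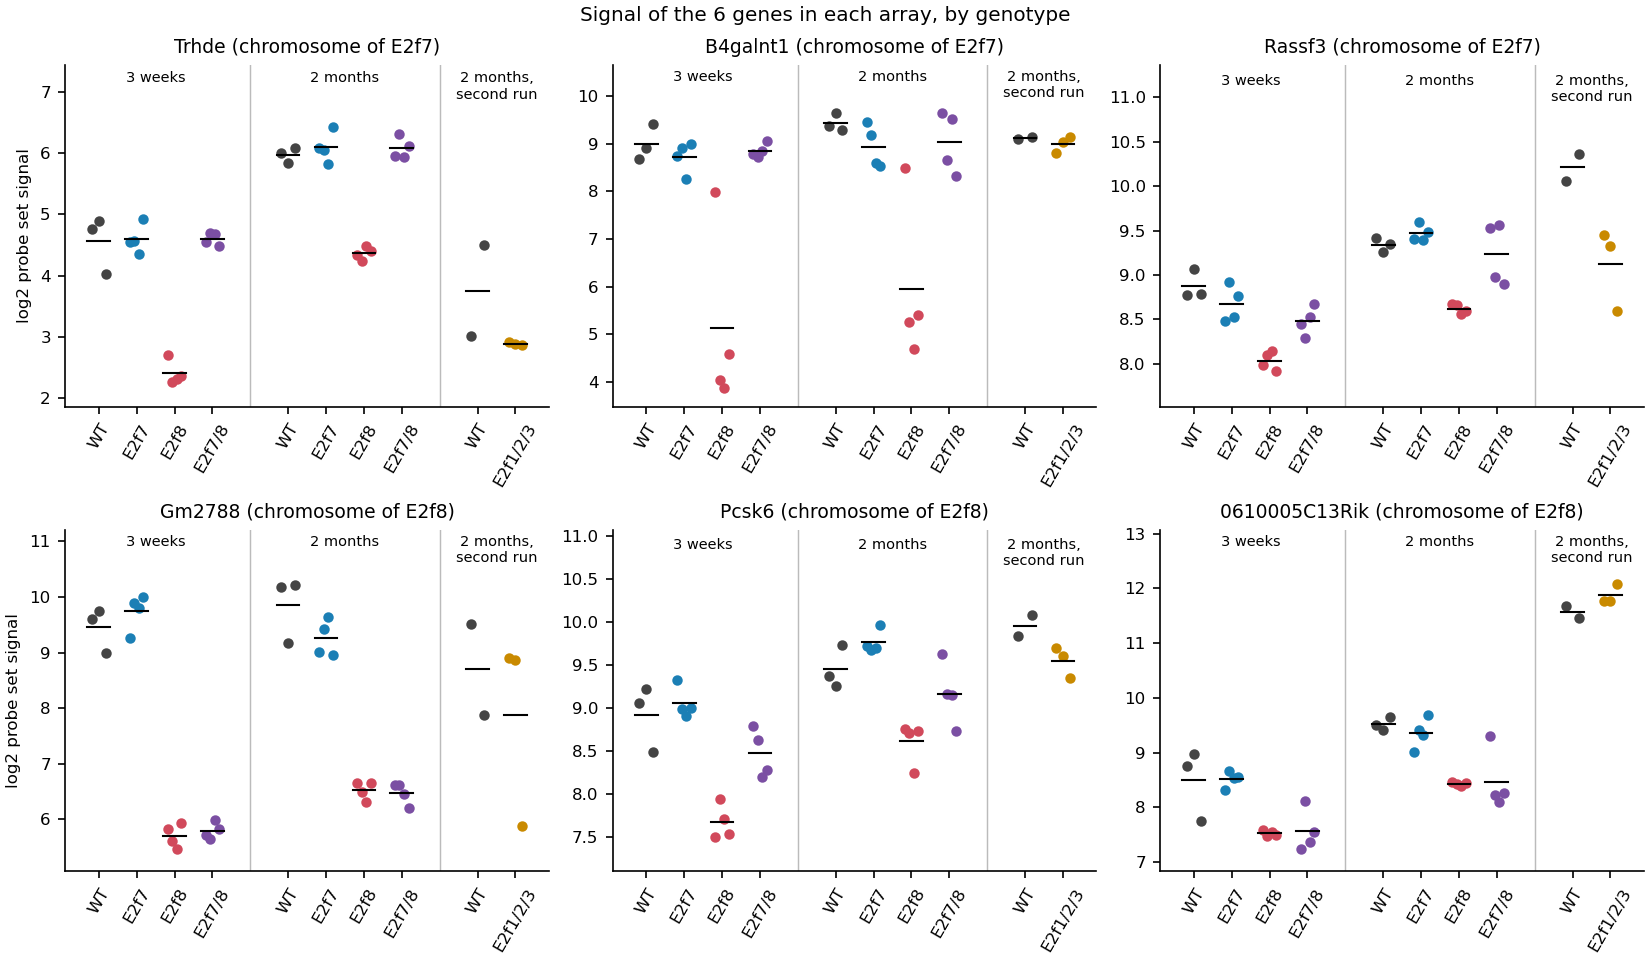
Each point is 1 array, with log2 probe set signal on the vertical axis and genotype on the horizontal axis. Black bars are group means, and grey lines separate the 3 runs, whose levels cannot be set against each other. Gm2788 is low in both groups with floxed E2f8 deleted. Among the Albumin-Cre groups Trhde and 3 of 4 B4galnt1 arrays at each age are low in the E2f8 knockout alone. In the second 2-month run Trhde in the E2f1/E2f2/E2f3 knockout (2.87 to 2.91) also lies below the wild-type arrays (3.02 and 4.50). In the E2f7/E2f8 knockout at 2 months 2 B4galnt1 arrays, at 8.65 and 8.32, lie below the 3 wild-type arrays of their run.

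0610005C13Rik, a long non-coding RNA gene at chr7:45567795-45575176, starts 3.3 Mb from E2f8 and overlaps Bcat2 by 6210 bp. Its signal at 3 weeks was 8.32, 8.66, 8.54 and 8.55 in the E2f7 knockout and 7.24, 8.11, 7.37 and 7.54 in the E2f7/E2f8 knockout, with no overlap. The E2f8 knockout arrays read 7.58, 7.48, 7.54 and 7.50. Wild type read 8.76, 8.97 and 7.75, so wild-type replicate 3 stood close to the arrays without E2f8 and apart from the other two.

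At 2 months 0610005C13Rik read 9.51, 9.40 and 9.65 in wild type and 9.01, 9.41, 9.33 and 9.69 in the E2f7 knockout. It read 8.47, 8.44, 8.39 and 8.44 in the E2f8 knockout and 9.30, 8.22, 8.10 and 8.27 in the E2f7/E2f8 knockout. Replicate 1 of the E2f7/E2f8 knockout lay within the range of arrays that have E2f8, and the other three lay below all of them. E2f7/E2f8 minus E2f7 knockout was -0.95 (SE 0.21, adjusted p = 0.0585, 95% interval -1.39 to -0.52) at 3 weeks and -0.89 (SE 0.21, adjusted p = 0.0722) at 2 months, both short of the threshold. Without E2f7/E2f8 replicate 2 at 3 weeks it was called at -1.13 (adjusted p = 0.0345), and without replicate 1 at 2 months it was called at -1.17 (adjusted p = 0.0112). Without any other single array it was not called, and the weakest values were -0.84 (adjusted p = 0.229) at 3 weeks and -0.76 (adjusted p = 0.293) at 2 months. Against wild type the E2f8 knockout was -0.97 and -1.09 (SE 0.23 each), and the 3-week value was -1.34 without wild-type replicate 3.

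Bcat2, the mitochondrial branched-chain aminotransferase, shares that segment with 0610005C13Rik and was chosen for naming after its values were seen. At 3 weeks it read 4.04, 5.07, 4.41 and 4.77 in the E2f7 knockout against 6.07, 5.60, 6.4 and 6.05 in the E2f7/E2f8 knockout. Bcat2 rose by 1.46 (SE 0.28, adjusted p = 0.0204), the opposite direction to the non-coding gene. Wild type read 4.11, 5.19 and 6.22, so the replicate with low 0610005C13Rik was the one with high Bcat2. At 2 months the difference was 0.81 (SE 0.28, adjusted p = 0.314).

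**Figure D2:**
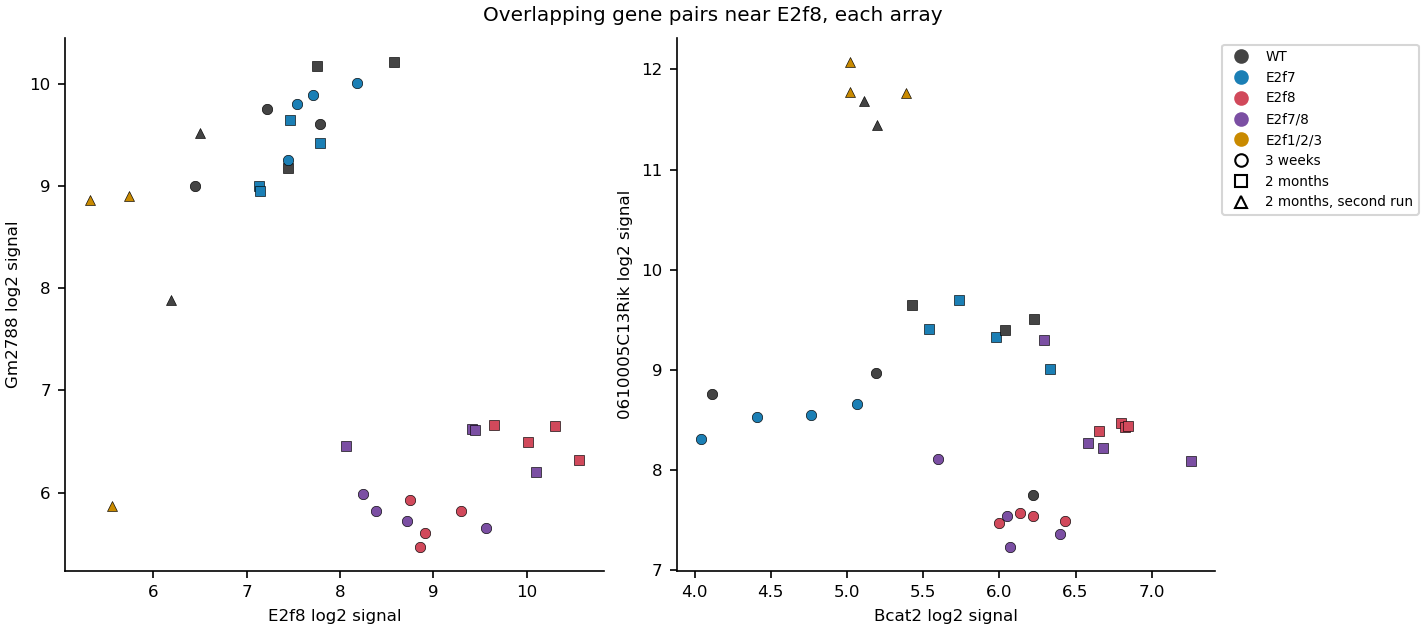
Each point is 1 array, coloured by genotype and shaped by run. The left panel sets log2 signal of Gm2788 against E2f8 and the right panel 0610005C13Rik against Bcat2. Albumin-Cre arrays with E2f8 deleted sit at low Gm2788 signal and mostly at high E2f8 signal, with 1 E2f7/E2f8 array at 2 months (8.07) below a wild-type array of its run (8.58). At 3 weeks 1 of the 3 wild-type arrays sits beside them at low 0610005C13Rik and high Bcat2.

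Pcsk6 encodes a proprotein convertase that cleaves precursors of secreted growth factors, at chr7:65862136-66050386, 17 Mb from E2f8. At 3 weeks it read 9.33, 8.99, 8.90 and 9.0 in the E2f7 knockout and 8.78, 8.62, 8.20 and 8.28 in the E2f7/E2f8 knockout, with no overlap. Wild type read 9.05, 9.22 and 8.48, and the E2f8 knockout 7.50, 7.94, 7.70 and 7.53. The E2f8 knockout lay below every other array, and the E2f7/E2f8 knockout lay between it and the E2f7 knockout.

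At 2 months Pcsk6 read 9.72, 9.67, 9.70 and 9.96 in the E2f7 knockout and 9.62, 9.15, 9.15 and 8.73 in the E2f7/E2f8 knockout, again with no overlap. Wild type read 9.37, 9.25 and 9.73, and the E2f8 knockout 8.76, 8.71, 8.24 and 8.73. E2f7/E2f8 minus E2f7 knockout was -0.58 (SE 0.17, adjusted p = 0.236) at 3 weeks and -0.60 (SE 0.17, adjusted p = 0.159) at 2 months, so Pcsk6 was not called. Its 95% intervals ran from -0.93 to -0.24 and from -0.94 to -0.25. Of the 6 genes, 3 lay wholly lower without overlap at 3 weeks and 2 at 2 months, against 2.76% and 3.90% of all genes. In the comparison that chose it, Pcsk6 was -1.25 and -0.84 (SE 0.18 each).

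Trhde encodes the membrane peptidase that degrades thyrotropin-releasing hormone, at chr10:114398820-114802302, 3.65 Mb from E2f7. At 3 weeks it read 4.76, 4.90 and 4.02 in wild type and 2.70, 2.27, 2.32 and 2.37 in the E2f8 knockout. The gene read 4.56, 4.56, 4.36 and 4.93 in the E2f7 knockout and 4.55, 4.70, 4.68 and 4.48 in the E2f7/E2f8 knockout. The E2f8 knockout arrays lay below all others, and the remaining genotypes overlapped.

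At 2 months the same order was seen. Trhde read 6.01, 5.83 and 6.08 in wild type and 4.33, 4.24, 4.49 and 4.40 in the E2f8 knockout. It read 6.08, 6.05, 5.82 and 6.43 in the E2f7 knockout and 5.96, 6.32, 5.94 and 6.11 in the E2f7/E2f8 knockout. E2f8 loss on the E2f7-deleted background, the tested comparison, was -0.00 (SE 0.19, 95% interval -0.40 to 0.40, adjusted p = 1) and -0.01 (SE 0.19, 95% interval -0.41 to 0.38, adjusted p = 0.994). On the E2f7-intact background it was -2.14 and -1.61 (SE 0.21 each), which chose the gene, so the difference between the backgrounds was not tested. Trhde was dim, with a mean of 4.58 over all arrays.

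B4galnt1 encodes the synthase that adds N-acetylgalactosamine to make the gangliosides GM2 and GD2, at chr10:127165156-127172340, 16.4 Mb from E2f7. At 3 weeks it read 8.68, 8.91 and 9.41 in wild type, and 7.99, 4.05, 3.88 and 4.58 in the E2f8 knockout. It read 8.75, 8.91, 8.26 and 9.0 in the E2f7 knockout and 8.78, 8.73, 8.84 and 9.07 in the E2f7/E2f8 knockout. Replicate 1 of the E2f8 knockout lay below every array of the other genotypes, at 49.5% of the wild-type mean. Its 3 fellow arrays were far below, at 2.88% to 4.67%.

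The same split was seen at 2 months, where B4galnt1 read 9.37, 9.64 and 9.28 in wild type and 8.50, 5.26, 4.68 and 5.40 in the E2f8 knockout. It read 9.46, 9.18, 8.60 and 8.52 in the E2f7 knockout and 9.65, 8.65, 9.53 and 8.32 in the E2f7/E2f8 knockout. Here replicate 1 of the E2f8 knockout, at 52.2% of the wild-type mean, stood among the lower arrays of the other knockouts, and 2 E2f7/E2f8 arrays lay below all 3 wild-type arrays. The mean difference in the E2f8 knockout, -3.88 and -3.47 (SE 0.66 each), was -4.83 and -4.32 without that replicate. The tested difference, E2f7/E2f8 minus E2f7 knockout, was 0.13 and 0.09 (SE 0.62 each, adjusted p = 0.974 and 0.992), with 95% intervals from -1.13 to 1.38 and from -1.16 to 1.35. That SE pools the spread over all groups, and the split E2f8 knockout groups had an SD of 1.93 and 1.72. In the E2f7/E2f8 and E2f7 knockouts the SD was 0.15 and 0.33 at 3 weeks, and 0.65 and 0.45 at 2 months. The SE, intervals and p therefore do not measure the spread of the compared arrays alone. A dimmer probe set of the gene differed by only -0.37 and -0.22 (SE 0.11 each) in the E2f8 knockout.

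Rassf3 encodes a Ras association domain protein of the family that feeds into the Hippo kinases, at chr10:121410350-121476250, 10.7 Mb from E2f7. At 3 weeks its brightest probe set read 8.77, 9.06 and 8.79 in wild type and 7.98, 8.10, 8.15 and 7.92 in the E2f8 knockout. It read 8.48, 8.92, 8.53 and 8.77 in the E2f7 knockout and 8.44, 8.29, 8.53 and 8.68 in the E2f7/E2f8 knockout. The E2f8 knockout lay lowest, and the E2f7/E2f8 knockout lay below wild type but overlapped the E2f7 knockout.

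At 2 months Rassf3 read 9.42, 9.25 and 9.35 in wild type and 8.67, 8.66, 8.56 and 8.59 in the E2f8 knockout. It read 9.41, 9.59, 9.39 and 9.49 in the E2f7 knockout and 9.52, 8.97, 9.57 and 8.90 in the E2f7/E2f8 knockout. The tested difference was -0.19 (SE 0.15, adjusted p = 0.786) and -0.23 (SE 0.15, adjusted p = 0.77). In the comparison that chose the gene it was -0.84 and -0.72 (SE 0.16 each). That value belongs to 1 of 3 probe sets: the other two differed by -0.18 and 0.06, and by 0.24 and 0.24.

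**Figure D3:**
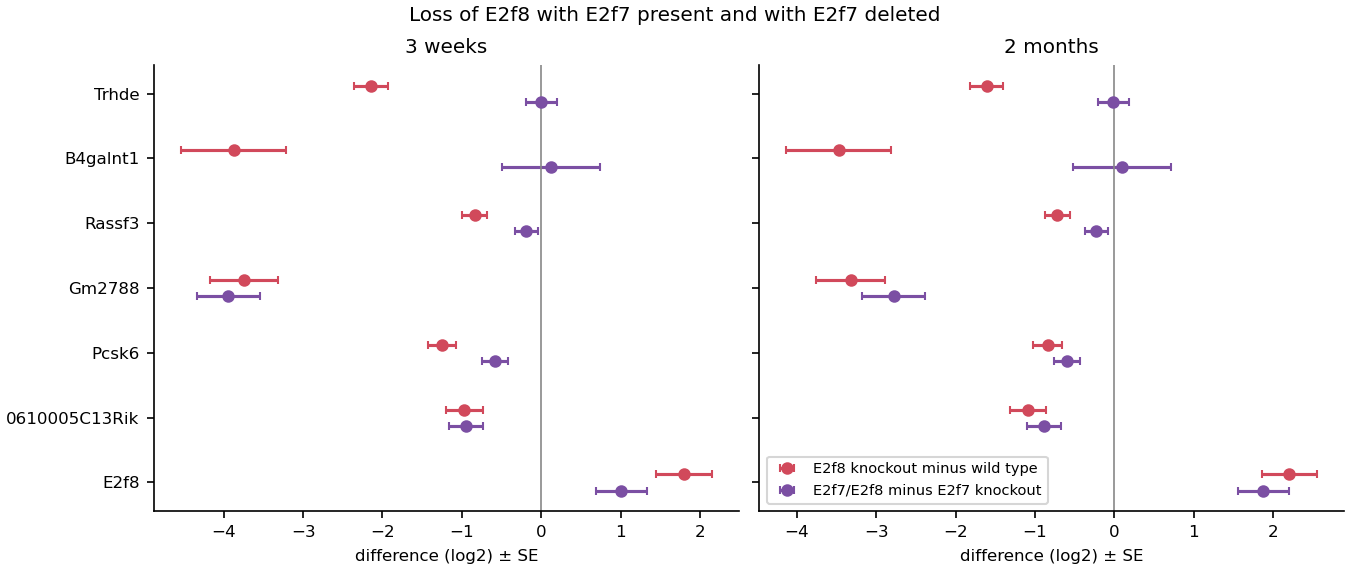
Difference in log2 signal with its SE (horizontal) for the 6 genes and E2f8 (vertical) after loss of E2f8, with E2f7 intact in red and with E2f7 deleted in purple. Gm2788, 0610005C13Rik, Pcsk6 and Rassf3 lie left of 0 in both and E2f8 right of 0, with Gm2788 between -3.94 and -2.78. With E2f7 deleted Rassf3 is at -0.19 and -0.23, and Trhde and B4galnt1 lie within 0.13 of 0.

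Side by side, the genes of the E2f8 chromosome lay lower on average in both genotypes without E2f8, with a call in the tested comparison for Gm2788 alone. Lower means were not limited to that chromosome. In the E2f7/E2f8 knockout Rassf3 lay at -0.39 and -0.10 from wild type at 3 weeks and 2 months, and B4galnt1 at -0.15 and -0.40. Trhde was at 0.04 and 0.11. Trhde, B4galnt1 and Rassf3 had their lowest group mean where E2f8 was deleted and E2f7 was intact. That order follows in part from how the genes were chosen, and it was not particular to the E2f7 chromosome. Pcsk6 showed it as well (7.67 against 8.47 in the E2f7/E2f8 knockout at 3 weeks, and 8.61 against 9.17 at 2 months). So did Adamdec1 on chromosome 14, at -1.06 and -0.83 in the E2f8 knockout and -0.36 and -0.12 in the E2f7/E2f8 knockout against wild type. The E2f7/E2f8 knockout minus the E2f8 knockout, which shares E2f8 knockout arrays with the choice and carries no test, was 2.19 and 1.72 for Trhde (SE 0.19 each) and 3.73 and 3.08 for B4galnt1 (SE 0.62 each). For Rassf3 it was 0.45 and 0.62 (SE 0.15 each) and for Pcsk6 0.80 and 0.56 (SE 0.17 each). For Gm2788 it was 0.09 and -0.06 (SE 0.40 each), and for 0610005C13Rik 0.04 and 0.04 (SE 0.21 each). In the E2f7 knockout all 6 lay between -0.60 and 0.31 from wild type over both ages, in a comparison that shares the wild-type arrays.

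The E2f1/E2f2/E2f3 knockout at 2 months was set against wild-type replicates 4 and 5, which share its run. Rassf3 fell, reading 9.45, 9.32 and 8.59 against 10.06 and 10.36 in wild type, a difference of -1.09 (SE 0.19, adjusted p = 0.000857). It was 1 of 6 genes called, beside 3.28% of all genes, and was not called when only the arrays of that run were fitted (adjusted p = 0.434). Over all probe sets, a second Rassf3 probe set fell too, by 0.76 (SE 0.15, adjusted p = 0.00421), and the dimmest was at -0.32 (adjusted p = 0.834).

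Trhde read 2.91, 2.89 and 2.87 in the triple knockout, and 3.02 and 4.50 in the wild-type arrays. The wild-type pair disagreed, and replicate 4 stood beside the knockouts. The difference was -0.86 (SE 0.25, adjusted p = 0.0507); without replicate 4 it was called at -1.60 (adjusted p = 8.52e-05), and without replicate 5 it was -0.12. Gm2788 read 8.90, 8.87 and 5.87 in the triple knockout and 9.52 and 7.88 in wild type, so knockout replicate 3 stood far below its fellow arrays. Its difference was -0.82 (SE 0.51, adjusted p = 0.471), and without single arrays it ranged from -1.64 to 0.18, the sign turning without that replicate.

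The remaining members were not called in the triple knockout. Pcsk6 read 9.69, 9.61 and 9.35 against 9.83 and 10.08, at -0.40 (SE 0.22, adjusted p = 0.373). B4galnt1 read 8.80, 9.04 and 9.14 against 9.11 and 9.14, at -0.13 (SE 0.79, adjusted p = 0.964). 0610005C13Rik read 11.76, 11.77 and 12.07 against 11.68 and 11.45, at 0.30 (SE 0.28, adjusted p = 0.668). The arrays of 4 of the 6 genes did not overlap in this comparison, where the same held for 26.4% of all genes. Knockout and background strain differ together here and cannot be told apart. All 7 measured strain-variable genes lay below 0, with a median of -0.36 where that of all genes was 0.00. Of these, 3 had an unadjusted p under 0.05 in limma. Of the 7, 1 was called, beside 3.28% of all genes: Alad of heme synthesis, which fell by 0.48 (SE 0.11, adjusted p = 0.0114).

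The neighbours of the targeted genes were counted next. Within 10 Mb of the E2f8 start there were 202 measured genes. In the E2f7/E2f8 minus E2f7 comparison 3 of them were called at 3 weeks (1.49%) and 3 at 2 months (1.49%), beside 0.121% and 0.237% of all placed genes. At 3 weeks these were Gm2788, Bcat2 and Abcc6, a liver transporter 2.89 Mb from E2f8, which fell by 1.08 (SE 0.18, adjusted p = 0.00724). At 2 months they were Gm2788, the sphingosine kinase Sphk2, which fell by 0.54 (SE 0.10, adjusted p = 0.0206), and the stress factor Atf5, which rose by 0.80 (SE 0.18, adjusted p = 0.0406). Sphk2 and Atf5 were chosen after their values were seen. Against wild type at 2 months Atf5 was at -0.68 in the E2f7, 0.11 in the E2f7/E2f8 and -0.29 in the E2f8 knockout (SE 0.19 each). Sphk2 was at 0.29, -0.26 and -0.15 in the same order (SE 0.11 each).

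Of 82 genes within 10 Mb of E2f7, limma called 0 at 3 weeks and 0 at 2 months in the E2f7/E2f8 minus E2f7 comparison, with 10 and 6 at an unadjusted p under 0.05. Around E2f8 20 and 28 of 202 had such a p. At the share called over all genes a window of 82 would hold less than 1 call, so a count of 0 there is near the background, and the difference between the windows was not tested. In that comparison both groups lack E2f7. The E2f7 knockout against wild type likewise called 0 of 82 around E2f7 and 0 of 202 around E2f8 at either age, beside 0.0440% and 0.00550% of all genes. Unadjusted counts there were 7 and 5 around E2f7, and 17 and 18 around E2f8. Rassf3 and B4galnt1 lie beyond 10 Mb of E2f7. Within 20 Mb of E2f7 limma called 2 genes at 2 months in E2f7/E2f8 minus E2f7 knockout, beside 0.236% of all genes. These were Lum at -1.04 (SE 0.21, adjusted p = 0.0218) and Hsd17b6 at -0.90 (SE 0.19, adjusted p = 0.0397), named after their values were seen.

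In the comparison that chose the genes, 1.91% of all genes were called at 3 weeks and 0.352% at 2 months. At both ages in the same direction 12 were called, 0.0660% of all genes, and 4 of them lie on chromosome 7 and 3 on chromosome 10. Besides the 6 genes and E2f8 these were Adamdec1, Eif4ebp1, Gm38396, Zfp994 and Yae1d1 on other chromosomes. Just inside the threshold lay Rassf3, with a higher adjusted p over both ages of 0.0328, and just outside lay Chsy1 on chromosome 7 and Ccdc59 on chromosome 10, both 0.0771. Chsy1, a chondroitin synthase 17.2 Mb from E2f8, was at -0.62 and -0.66, and Ccdc59, 4.9 Mb from E2f7, was at -0.74 and -0.71.

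**Figure D4:**
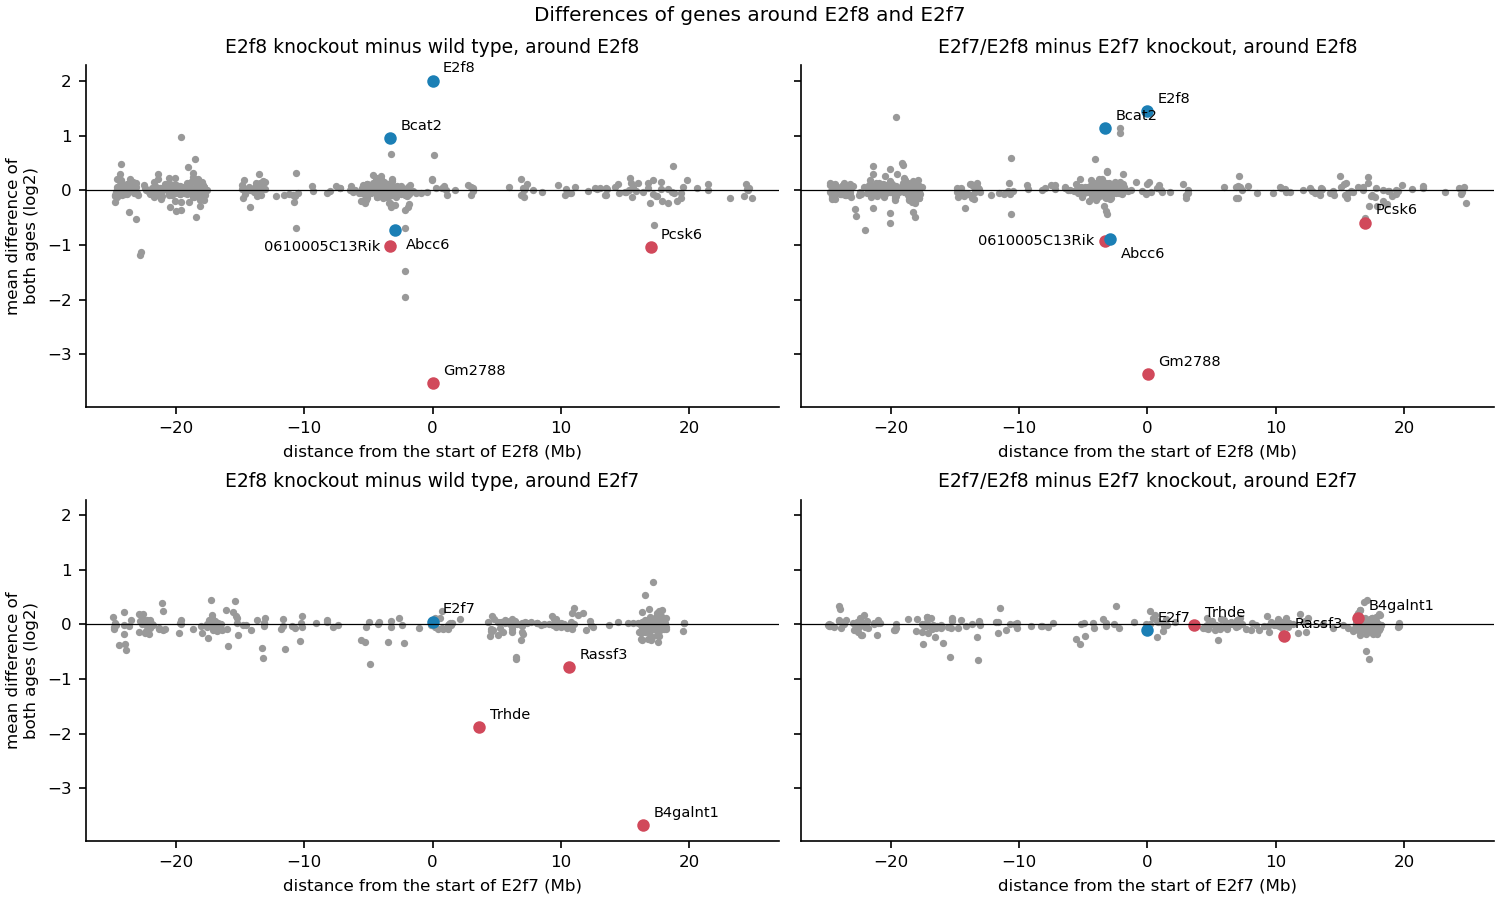
Each point is a measured gene, placed by its distance from the start of E2f8 (top) or E2f7 (bottom) in Mb, with the log2 difference averaged over both ages on the vertical axis. Red points are the 6 genes and blue points are other named genes. Gm2788, Abcc6 and 0610005C13Rik lie low and Bcat2 high in both top panels, and the red points around E2f7, low in the left panel, lie near 0 in the right one.

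For each gene the 3 most similar profiles were found by Pearson r over the 35 arrays after the mean of each run was removed. These arrays share the E2f8 knockouts that chose the genes, so r is a description. Gm2788 was closest to Abcc6 (r = 0.819), 0610005C13Rik (0.799) and Pcsk6 (0.747), all on chromosome 7. 0610005C13Rik was closest to Abcc6 (0.836), to Ech1, an enzyme of fatty acid oxidation 16.7 Mb from 0610005C13Rik itself (0.803), and to Gm2788 (0.799), again all on that chromosome. Trhde was closest to B4galnt1 (0.819), Pcsk6 (0.812) and Adamdec1 (0.761).

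The other profiles crossed chromosomes. B4galnt1 was closest to Trhde (0.819), Gas5 on chromosome 1 (0.722) and Pcsk6 (0.690). Rassf3 was closest to Golm2 on chromosome 2 (0.768), Pcsk6 (0.765) and Cnot8 on chromosome 11 (0.759). Pcsk6, the gene farthest from E2f8, was closest to Trhde (0.812), Abcc6 (0.787) and Rassf3 (0.765).

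The pathways of these genes were read from lists of related genes, among them B4galnt1, Trhde, Rassf3 and Pcsk6 themselves. In E2f7/E2f8 minus E2f7 knockout limma called 0 of 19 measured ganglioside and sphingolipid genes, 0 of 10 M1 aminopeptidases, 0 of 12 thyroid hormone genes, 0 of 19 RASSF and Hippo genes and 0 of 7 proprotein convertases, at both ages. Of all genes 0.121% and 0.236% were called there, so counts of 0 in lists of this size are near the background. At an unadjusted p under 0.05 the counts at 3 weeks were 0, 0, 1, 1 and 1, and at 2 months 1, 1, 1, 3 and 1. Medians of the lists lay between -0.11 and 0.06, where those of all genes were 0.01 and -0.02.

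In the E2f8 knockout, where B4galnt1 was chosen for its call, 3 of the 18 other ganglioside genes were called at 3 weeks, beside 1.91% of all genes. These were B4galt6, a lactosylceramide synthase, at -0.39 (SE 0.10), the lysosomal Hexa at -0.50 (SE 0.13) and the sialyltransferase St3gal1 at 0.50 (SE 0.12). At 2 months limma called 0 of the 18, and 1 had an unadjusted p under 0.05. In the triple knockout limma called 2 of 12 thyroid genes, beside 3.28% of all genes. Calls there depended on the fit, with 597 genes in the main fit and 4 with only the arrays of that run. The deiodinase Dio1 fell by 2.35 (SE 0.67, adjusted p = 0.048) and the thyroid hormone transporter Slco1a1 fell by 2.32 (SE 0.65, adjusted p = 0.042). Of 19 RASSF and Hippo genes Rassf3 fell and Rassf1 rose by 0.29 (SE 0.08, adjusted p = 0.0292).

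Markers of other liver cells also differed in the E2f8 knockout arrays. All 6 Kupffer cell markers were lower than in wild type, with medians of -0.62 at 3 weeks and -0.70 at 2 months. Limma called 1 of 6 at each age, beside 1.91% and 0.352% of all genes, and 5 and 6 of 6 had an unadjusted p under 0.05. Against wild type the medians were -0.43 and -0.39 in the E2f7 knockout and -0.48 and -0.39 in the E2f7/E2f8 knockout, with 0 of 6 called by limma in each and 4, 3, 3 and 1 at an unadjusted p under 0.05. In E2f7/E2f8 minus E2f7 knockout the medians were 0.03 and 0.02. Array means of these markers ran from 7.60 to 8.35 in the E2f8 knockout and from 8.32 to 8.93 in wild type at 3 weeks, and from 8.69 to 9.11 and 9.38 to 9.83 at 2 months. Their mean was higher in the triple knockout, at 9.75 to 10.23 against 8.96 to 9.16, with 3 of 6 called (Adgre1, Cd5l and Marco), beside 3.28% of all genes. Sinusoidal endothelial markers had medians of -0.32 and -0.35 in the E2f8 knockout, with 5 of 5 and 4 of 5 below 0 and 0 called in limma (2 and 2 at an unadjusted p under 0.05). That was not particular to the E2f8 knockout. Against wild type their medians were -0.47 and -0.28 in the E2f7/E2f8 knockout, with 5 of 5 and 4 of 5 below 0. In the E2f7 knockout they were -0.21 and -0.03, with 5 of 5 and 3 of 5 below 0. Of 2 erythroid markers Slc4a1, the red cell anion exchanger, was called lower in the E2f8 knockout at 3 weeks, beside 1.91% of all genes. At 3 weeks 3 of 17 clock genes (2 lower, 1 higher) and 4 of 15 feeding genes (2 lower, 2 higher) were called in the E2f8 knockout, beside 1.91% of all genes, and 0 and 0 at 2 months in limma, beside 0.352%, where 2 and 3 had an unadjusted p under 0.05. Their part in the values of the 6 genes was not tested.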

How the data were processed

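Per the submitters' processing notes the authors used RMA, in which background is corrected, arrays are normalized together and the probes of each set are combined, with no version named; the deposited values are log2 signals. Of 45101 probe sets, 34945 carried 1 gene symbol in the platform table, 932 several, 9160 none and 64 were controls. For a gene with several probe sets the one brightest on average was kept (18193 genes, 18142 placed on GRCm38). Groups were fitted over all 35 arrays with limma 3.58.1 in R 4.3.3, with 1 term for the second 2-month run and an intensity trend (25 residual degrees of freedom). A call means an adjusted p under 0.05 (Benjamini-Hochberg, over all genes). Counts at an unadjusted p under 0.05 stand without a share over all genes, so they are not set against a background. Runs were found from the distributions of values and are not described in the labels. The fit was tested on simulated data, and other values were computed in Python 3.11.15. Arrays have no read depth; their number, 3 to 5 per group, limits the precision. The members and lists were chosen with earlier results of these data known. Genes were named by rule: the members, the targeted genes, 3 closest profiles per member, called neighbours within 10 Mb of E2f7 or E2f8, and up to 4 genes per list, except where chosen after their values were seen. Same-numbered arrays did not deviate together (r between -0.13 and 0.09), so numbers were not treated as pairs. Alternatives were other sets of arrays in the fit, no run term, quantile normalization, no dim genes, other probe set rules, no trend, array weights, a replicate block, single arrays left out, an exact permutation test and other windows.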

Additional observations from a re-analysis of the deposited data

Results flagged for a closer look

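Among the 36 groups of 4 or more arrays examined for the 6 genes, 3 held an array far from the others, where chance alone marks about 1 in 20 groups. B4galnt1 in the E2f8 knockout at 3 weeks had replicate 1 at 7.99 against 3.88 to 4.58 in the other arrays, a gap of 0.830 of the group's range. Pcsk6 in the E2f8 knockout at 2 months had replicate 3 at 8.24, with the others between 8.71 and 8.76, a gap of 0.912. 0610005C13Rik in the E2f7/E2f8 knockout at 2 months had replicate 1 at 9.30, with the others between 8.10 and 8.27, a gap of 0.857.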

How the results depend on the processing

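Gm2788 kept its direction and its call in E2f7/E2f8 minus E2f7 knockout under every alternative limma fit at both ages. Without single arrays it ranged from -4.1 to -3.86 at 3 weeks and from -2.88 to -2.65 at 2 months. The exact permutation test gives an unadjusted p and so no call. With array weights 2 members were called at 3 weeks and 3 at 2 months, 0610005C13Rik at both (-1.0 and -1.01) and Pcsk6 at 2 months (-0.64). Without single arrays 1 to 2 members were called at each age and in the triple knockout, and 0 for the change with age. In the triple knockout 0 members were called with only the groups compared, with only the arrays of the run, with probe sets of a gene averaged (Rassf3 -0.72, adjusted p = 0.0559) and with the replicate block (Rassf3 -1.10, adjusted p = 0.0708), and 4 with no term for the run, which sets arrays of different runs against each other. The replicate block changed no other count of members, and the shared numbers are not known to pair samples. Signs turned for Rassf3 in E2f7 knockout minus wild type at 2 months with no run term (-0.22) and in E2f7/E2f8 minus E2f8 knockout at 3 weeks with probe sets averaged (-0.06), and for 5 uncalled differences: in the triple knockout Trhde with the block (0.05) and Gm2788 without replicate 3 (0.18), B4galnt1 in E2f7/E2f8 minus E2f7 knockout at 3 weeks without E2f7 replicate 3 (-0.03), and, without wild-type replicate 3 at 3 weeks, Pcsk6 in the E2f7 knockout (-0.08) and B4galnt1 in the E2f7/E2f8 knockout (0.06). Differences within 0.1 of 0 changed sign 51 times; the cause was not tested. Counts of genes called depended on the fit. For E2f7/E2f8 minus E2f7 knockout, 22 genes at 3 weeks and 43 at 2 months became 37 and 19 with only the groups compared, 7 and 4 with only the run, 47 and 431 with array weights, and 5 to 24 and 4 to 68 without single arrays. For the triple knockout 597 became 4 with only its run, 6167 with no run term, 189 with array weights, 98 with the block and 245 to 767 without single arrays. The dim filter removed Trhde. The exact permutation test (two-sided) over the 70 splits of 4 against 4 gave its smallest value, 0.0286 unadjusted, for Gm2788 and Pcsk6 at both ages and for 0610005C13Rik at 3 weeks. Ranking by Spearman kept 1 to 2 of each gene's 3 closest profiles.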
